A study of Caenorhabditis elegans with 3 samples.

Results

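The genes described here are regulators and targets of HIF-1, the hypoxia-inducible transcription factor of the nematode Caenorhabditis elegans, together with genes of the response to hydrogen sulfide. They were taken by name from a list of 9 genes, and 8 of the 9 were found among the locus names of the 45343 features in the deposited tables: egl-9, vhl-1, rhy-1, cysl-1, cysl-2, cysl-3, sqrd-1 and phy-2. The ninth, sqrd-2, was not analysed here. Messenger RNA was sequenced from whole animals synchronised by hypochlorite treatment and harvested at the L4 larval stage. The strains were ZG24, which carries the ia03 allele of ahr-1, CZ2485, which carries the ju145 allele of ahr-1, and the wild type N2, and no other mutation or treatment is given in the labels. With 1 library a strain there was no replicate error and no test, and a difference between libraries is not shown to be a difference between genotypes.

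HIF-1 and AHR-1, the worm aryl hydrocarbon receptor, are bHLH-PAS proteins that each bind DNA as a dimer with the same partner, AHA-1. When oxygen is plentiful, the prolyl hydroxylase EGL-9 modifies HIF-1, and VHL-1, the substrate receptor of a cullin ubiquitin ligase, marks it for destruction, while the membrane protein RHY-1 also holds HIF-1 activity down. CYSL-1, a relative of cysteine synthases, binds EGL-9 and blocks it when RHY-1 is lost or sulfide builds up, and HIF-1 then raises its targets, among them cysl-2, sqrd-1, phy-2 and, as negative feedback, egl-9 and rhy-1.

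Levels are given as FPKM, the authors' deposited unit, in which the fragments of a gene are divided by its length and by library size, so levels of different genes can be compared. Differences are given as the log2 ratio of FPKM + 1 between 2 libraries, for features whose status was OK in the authors' tables and whose FPKM reached 1 in either library. All 8 genes met these conditions in every comparison. Total fragments per library were not used here. Taking the lowest values as single fragments, depth relative to wild type came to 1.23 in ia03 and 1.08 in ju145. These rough values come from the most frequent ratio among features low in both libraries. It was held by 35 of 417 such features in ia03 and 95 of 555 in ju145. The median log2 ratio over all measured features was -0.02 in ia03 and -0.18 in ju145, so a gene of ju145 at the wild type level stood above most others. The FPKM of ahr-1 itself was 0.699 in ia03 and 0.569 in ju145, against 0.664 in wild type, below the floor of 1 in all 3 libraries, so it neither bears out the labels nor goes against them.

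No member of the group differed by 2-fold from wild type in either mutant. In the ia03 library cysl-2, sqrd-1 and phy-2, all known HIF-1 targets, were 1.5-fold to 2-fold higher than in wild type, and vhl-1 was higher by less than that. In the ju145 library the same 4 genes lay between 1.01 and 1.19 times wild type as deposited. The feedback targets rhy-1 and egl-9 were lower than wild type in both mutants. Those of cysl-1 and cysl-3 lay between 0.912 and 0.967 times wild type. As deposited, known targets of HIF-1 thus stood on both sides of wild type in the same library. Of all measured features, 52.5% lay below wild type in ia03 and 71.7% in ju145. Less the median of all features, the log2 ratios of cysl-1 and cysl-3 in ju145 were 0.05 and 0.08. Those of rhy-1 and egl-9 stayed negative in both mutants. The plot of levels by library shows the FPKM of each gene. Positions below are those in the deposited tables, counted from 1, on a build that no source used here names.

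**Figure D1:**
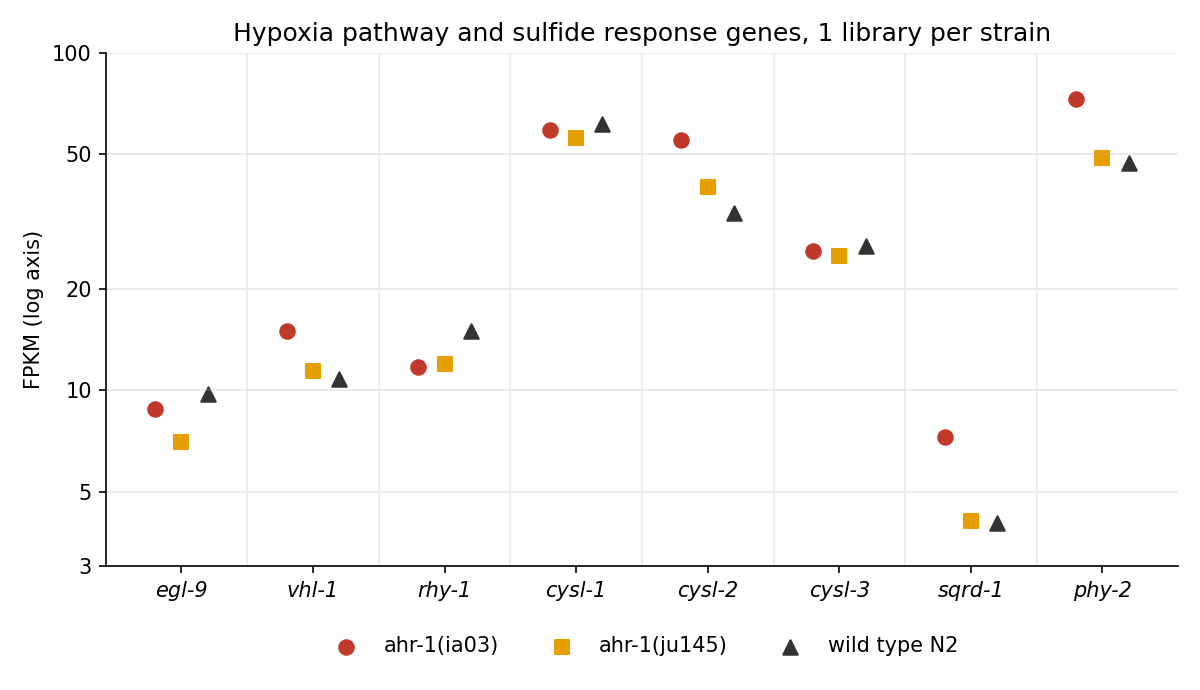
FPKM (log axis) of the 8 genes in the single library of ahr-1(ia03) (circles), ahr-1(ju145) (squares) and wild type N2 (triangles). The ia03 library is the highest of the 3 for vhl-1, cysl-2, sqrd-1 and phy-2, and wild type is the highest for egl-9, rhy-1, cysl-1 and cysl-3.

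Among the regulators that keep HIF-1 low, egl-9 (F22E12.4, chromosome V, 10468387 to 10476929) encodes the oxygen-dependent prolyl hydroxylase. Its FPKM was 8.78 in ia03 and 7.02 in ju145, against 9.75 in wild type. The ju145 library was the lowest, with a log2 ratio of -0.42, and ia03 stood nearer to wild type at -0.14. The authors' deposited table gave egl-9 a q-value of 0.0076 in ju145, the only one under 0.05 among the 8 genes in that mutant, and 0.654 in ia03. That table compares 2 libraries, and 8.44% of all measured features had a q-value under 0.05 with a lower level in ju145. Of all measured features, 23.7% had a lower ratio than egl-9 in ju145, and its log2 ratio less the median of all features was -0.24.

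The gene vhl-1 (F08G12.4, chromosome X, 11307295 to 11308257) encodes the worm von Hippel-Lindau protein. It had an FPKM of 15.0 in ia03 and 11.4 in ju145, against 10.8 in wild type. As deposited, the ia03 library stood apart, with a log2 ratio of 0.44 against 0.07 in ju145, and the authors' deposited table gave the ia03 difference a q-value of 0.573. Less the median of all features, the log2 ratio was 0.46 in ia03 and 0.26 in ju145. The FPKM of egl-9 was 0.585 of that of vhl-1 in ia03 and 0.616 in ju145, against 0.904 in wild type.

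The gene rhy-1 (W07A12.7, chromosome II, 9161317 to 9165703) encodes a membrane protein related to acyltransferases. Its FPKM was 11.7 in ia03 and 11.9 in ju145, against 15.0 in wild type. Both mutant libraries lay close together and below wild type, with log2 ratios of -0.34 and -0.30 and q-values of 0.581 and 0.417 in the authors' deposited tables. Subtracting the median of all features left -0.32 in ia03 and -0.12 in ju145. In the files rhy-1 shares its interval with W07A12.8, which had an FPKM of 4.98 in ia03 and 6.61 in ju145, against 6.47 in wild type, so reads may be split between them.

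The cysteine synthase-like genes differed among themselves. The gene cysl-1 (C17G1.7, chromosome X, 9952503 to 9954482), whose product senses sulfide and binds EGL-9, had the highest wild type level of the 8 genes, with an FPKM of 59.0 in ia03 and 56.1 in ju145, against 61.5 in wild type. Its log2 ratios, -0.06 for ia03 and -0.13 for ju145, lay inside the middle 50% of all features. The gene cysl-3 (R08E5.2, chromosome V, 3772043 to 3776122), a family member for which no role is given here, had 25.9 in ia03 and 24.9 in ju145, against 26.8 in wild type, with log2 ratios of -0.05 and -0.10. Its level stood at 0.439 of cysl-1 in ia03 and 0.444 in ju145, against 0.436 in wild type, so this pair kept nearly the same proportion in the 3 libraries.

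The gene cysl-2 (K10H10.2, chromosome II, 14489724 to 14494439) encodes a cyanoalanine synthase that takes part in cyanide and sulfide detoxification and is often used as a reporter of HIF-1 activity. It had an FPKM of 55.1 in ia03 and 40.1 in ju145, against 33.6 in wild type. Both mutant libraries lay above wild type, ia03 by a log2 ratio of 0.70 and ju145 by 0.25, or 0.71 and 0.43 less the median of all features. The FPKM of cysl-2 was 0.935 of that of cysl-1 in ia03 and 0.715 in ju145, against 0.547 in wild type. The authors' deposited table gave it a q-value of 0.000665 in ia03, the only one under 0.05 among the 8 genes there, where 2.09% of all measured features were called higher by that limit, and 0.248 in ju145.

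Some of these readings share their interval in the files with another coding gene. The interval of cysl-2 also holds vnut-1, a vesicular nucleotide transporter gene, with 24.1 in ia03 and 19.7 in ju145, against 22.04 in wild type, so it did not follow cysl-2. That of cysl-3 holds R08E5.3, with 72.1 in ia03 and 45.2 in ju145, against 48.6 in wild type. The other members, egl-9, vhl-1, cysl-1, sqrd-1 and phy-2, shared theirs with no feature above 0 in any library. How the authors' counting divided reads between overlapping genes, or between related cysl genes, was not tested.

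The gene sqrd-1 (F02H6.5, chromosome IV, 14219874 to 14224415) encodes the mitochondrial sulfide:quinone oxidoreductase, which opens the breakdown of hydrogen sulfide. It had the lowest level of the 8 genes, with an FPKM of 7.28 in ia03 and 4.09 in ju145, against 4.04 in wild type. As deposited, only the ia03 library was high, at 1.802 times wild type, or a log2 ratio of 0.72 with the pseudocount, the largest of the group. Of all measured features, 4.58% had a higher ratio in ia03. The authors' deposited table gave sqrd-1 a p-value of 0.0144 and a q-value of 0.136 in ia03, and a q-value of 0.98 in ju145. Less the median of all features, its log2 ratio was 0.73 in ia03 and 0.20 in ju145.

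The depth behind these values differed between genes. FPKM times the exon length of the longest annotated transcript in kilobases is proportional to the fragments behind a gene, and in wild type this product was 6.71 for sqrd-1 and 9.65 for vhl-1, but 37.8 for cysl-2, 76.0 for cysl-1 and 82.0 for phy-2. The ratio of sqrd-1 therefore rests on far fewer fragments than that of cysl-2 or phy-2.

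The gene phy-2 (F35G2.4, chromosome IV, 12211072 to 12215967) encodes a catalytic subunit of collagen prolyl 4-hydroxylase, an enzyme of cuticle formation. It had an FPKM of 73.1 in ia03 and 48.7 in ju145, against 47.2 in wild type. The ia03 library stood apart from the other two, with a log2 ratio of 0.62 against wild type and 0.58 against ju145, while ju145 lay at 0.04. Less the median of all features, these ratios against wild type were 0.64 in ia03 and 0.23 in ju145. The authors' deposited table gave phy-2 a p-value of 0.00552 and a q-value of 0.0771 in ia03.

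As a group, 0 of 8 genes differed by at least 2-fold in ia03, where 6.78% of 14783 measured features did, and 0 of 8 in ju145, where 4.90% of 14686 did. At a limit of 1.5-fold, 3 of 8 were higher in ia03 (cysl-2, sqrd-1 and phy-2) and 0 lower, beside 6.68% of all measured features higher and 13.2% lower. With a pseudocount of 5 in place of 1, only cysl-2 passed that limit, 1 of 8. In ju145 at that limit 0 of 8 were higher and 0 lower, beside 2.94% and 13.8% of all measured features. The median log2 ratio of the 8 genes was 0.20 in ia03 and -0.04 in ju145, against -0.02 and -0.18 over all measured features. With 8 genes chosen by name, these counts describe the libraries and show nothing particular to the group. Both ratios also share the single wild type library, so a high or low value there moves both mutants alike.

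**Figure D2:**
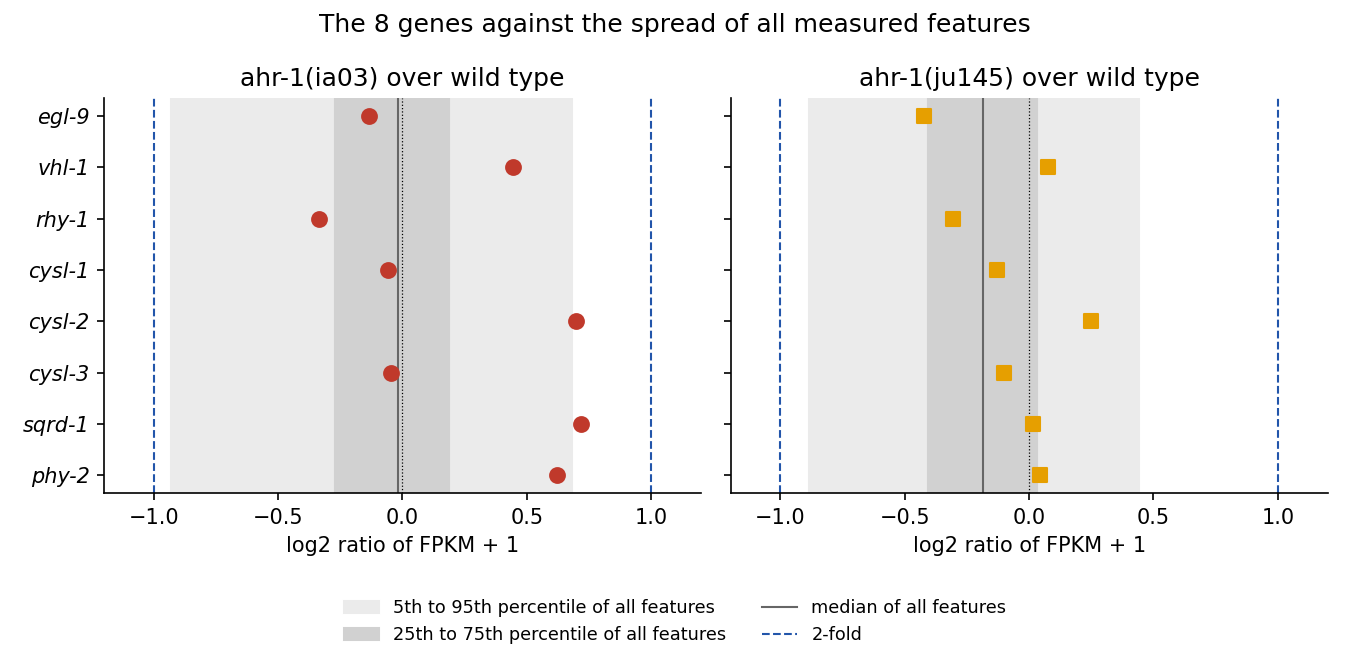
Log2 ratio of FPKM + 1 of each of the 8 genes in ahr-1(ia03) over wild type (left) and ahr-1(ju145) over wild type (right). Grey bands hold the middle 50% and 90% of all measured features and dashed lines mark 2-fold; sqrd-1 at 0.72 and cysl-2 at 0.70 lie just beyond the 95th percentile of 0.68 in ia03, and no gene lies beyond the 90% band in ju145.

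Set directly against each other, the mutants differed most in sqrd-1, with a log2 ratio of 0.70 in ia03 over ju145, or 1.78-fold without the pseudocount. Then came phy-2 at 0.58, cysl-2 at 0.45, vhl-1 at 0.37 and egl-9 at 0.29, while cysl-1, cysl-3 and rhy-1 lay between -0.03 and 0.07. The median over all measured features was 0.15. No member of the 8 differed by 2-fold between the mutants, where 2.66% of 14384 measured features did, and 1 was at least 1.5-fold higher in ia03, where 6.88% of features were. The tables used here hold no q-value for this pair. The 3 coding genes whose pair of log2 ratios against wild type came nearest to that of sqrd-1 were T23F6.5, C26B9.3 and F26G1.9. They were picked as the nearest among 13416 coding genes, so a small distance was set by the search. Each was at most 0.0177 from sqrd-1 in either ratio, over 3 libraries in all. The level of C26B9.3, for instance, was 56.9 in ia03 and 34.2 in ju145, against 34.1 in wild type.

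The genes around the members came from 5 lists of 42 genes, of which 36 were measured in ia03 and 36 in ju145, shown in the plot of gene lists. In the list of HIF-1 and its turnover, 0 of 7 genes differed by 2-fold in either mutant. Over all measured features the share was 6.78% in ia03 and 4.90% in ju145. The transcript of hif-1 itself, exceeded within that list in wild type only by elc-1 and rbx-1, had an FPKM of 93.2 in ia03 and 95.6 in ju145, against 96.1 in wild type, or log2 ratios of -0.04 and -0.007. HIF-1 is controlled mainly through the stability of its protein, which was not measured here. The shared partner gene aha-1 was at 10.98 in ia03 and 8.27 in ju145, against 9.51 in wild type. It shares its interval with the more abundant mrpl-34, at 41.9 in ia03 and 35.4 in ju145, against 36.1 in wild type, so its reads are uncertain. The elongin gene elc-1, part of the VHL ligase, was at 180 in ia03 and 220 in ju145, against 146 in wild type, and its partner elb-1 was at 97.4 and 110 in those mutants, against 75.6 in wild type. Both elongins were highest in ju145, while vhl-1 was highest in ia03, and neither had a q-value under 0.05 in the authors' deposited tables.

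Among 7 measured HIF-1-linked targets outside the members, 0 differed by 2-fold in either mutant. Over all measured features 6.78% did in ia03 and 4.90% in ju145. The list medians were -0.08 in ia03 and -0.18 in ju145, close to those of all features. The list holds genes raised by HIF-1 and at least 1 gene repressed by it, ftn-1, so its median shows no direction of HIF-1 targets. The gene F22B5.4, known to be induced by hypoxia through HIF-1, had the lowest ratio of the list in ia03, with an FPKM of 12.1 in ia03 and 13.9 in ju145, against 21.6 in wild type. The nuclear receptor gene nhr-57, another reporter of HIF-1 activity, had the lowest ratio in ju145. Its FPKM was 4.76 in ia03 and 2.66 in ju145, against 5.25 in wild type. The authors' deposited table gave it a q-value of 0.0404 in ju145, where 8.44% of all measured features were called lower by that limit. Its product of FPKM and exon length was 8.19 in wild type, so its ratios rest on few fragments. Both F22B5.4 and nhr-57 stood below wild type in the libraries in which cysl-2 stood above it. In ia03 3 of the 7 genes lay above wild type, beside 47.5% of all measured features. They were the metal transporter gene smf-3 at 1.496 times, the cysteine dioxygenase gene cdo-1 at 1.12 times and ftn-2 at 1.05 times. All 3 were named after their values were seen. The other ferritin gene, ftn-2, is not counted here as a gene raised by HIF-1. The ferritin gene ftn-1, which HIF-1 is known to repress, was at 1.83 in ia03 and 2.18 in ju145, against 1.99 in wild type. The flavin-containing monooxygenase gene fmo-2 stayed under an FPKM of 1 in the 3 libraries and was not compared.

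**Figure D3:**
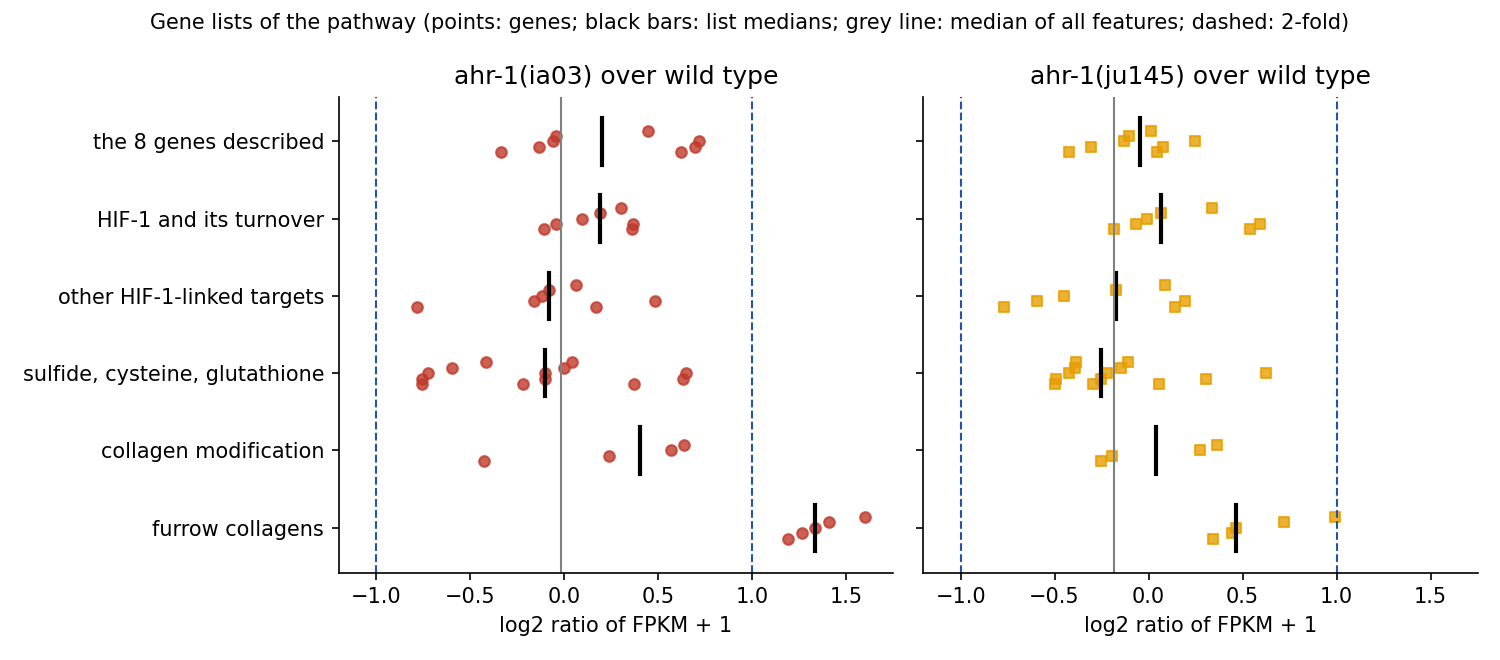
Log2 ratio of FPKM + 1 of each measured gene in ahr-1(ia03) over wild type (left) and ahr-1(ju145) over wild type (right), by list, with black bars at list medians and a grey line at the median of all features. The furrow collagens have a median of 1.34 in ia03 and 0.47 in ju145. In ia03 they lie apart from the other lists, whose genes all stay within 2-fold. The lists were chosen with earlier results of these data known.

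Of 16 genes of sulfide, cysteine and glutathione metabolism, 13 were measured and 0 differed by 2-fold. Over all measured features 6.78% did in ia03 and 4.90% in ju145. At 1.5-fold, 2 were higher and 4 lower in ia03, beside 6.68% and 13.2% of all measured features. In ju145 1 was higher and 0 lower at that limit, beside 2.94% and 13.8%. The mercaptopyruvate sulfurtransferase genes mpst-5 and mpst-6, of a family that yields sulfide from cysteine, had equal values in ia03 and in wild type and reads that may not be separable. Their FPKM was 14.6 in ia03 and 17.7 and 17.6 in ju145, against 25.3 in wild type. The gene cth-1, a cystathionine gamma-lyase of cysteine synthesis named here after its values were seen, went the other way, at 60.9 in ia03 and 59.9 in ju145, against 38.5 in wild type. It was the only 1 of the 13 genes with a q-value under 0.05 in the authors' deposited tables, at 0.035 in ia03 and 0.0135 in ju145. Over all measured features, 5.89% had a q-value under 0.05 in ia03 and 9.40% in ju145. The gene ethe-1, also named after its values were seen, encodes the persulfide dioxygenase that acts after SQRD-1. It was at 8.31 in ia03 and 7.65 in ju145, against 8.33 in wild type, so it did not follow sqrd-1 in ia03. Others of the list were higher there. The gene suox-1 was at 55.3 in ia03 and 44.3 in ju145, against 42.6 in wild type. For mpst-7 the values were 19.2 and 15.1, against 12.1. Both share an interval with another coding gene. Of the 13 genes, 4 lay above wild type in ia03 and 9 below, beside 47.5% and 52.5% of all measured features.

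Of 4 measured genes of collagen modification besides phy-2, 0 differed by 2-fold in either mutant, and 1 was at least 1.5-fold higher in ia03. Over all measured features, 6.78% differed by 2-fold in ia03 and 4.90% in ju145, and 6.68% were at least 1.5-fold higher in ia03. The gene dpy-18, which encodes the other main catalytic subunit of the cuticle prolyl 4-hydroxylase, had an FPKM of 76.6 in ia03 and 59.3 in ju145, against 48.8 in wild type. The gene pdi-2, whose product is the non-catalytic subunit of the same enzyme, was at 1188 in ia03 and 1032 in ju145, against 801 in wild type, with a q-value of 0.0229 in ia03 in the authors' deposited table. The lysyl hydroxylase gene let-268 was higher in ia03 by less than phy-2, with a log2 ratio of 0.24. A further prolyl 4-hydroxylase gene, phy-3, was lower there, at -0.43. It shares its interval with the more abundant tni-3, at 71.3 in ia03 and 63.2 in ju145, against 90.9 in wild type, so its reads are uncertain. The level of phy-2 was 0.955 of that of dpy-18 in ia03 and 0.821 in ju145, against 0.967 in wild type. All 5 measured furrow collagens, cuticle components that pass through such enzymes, were at least 2-fold higher in ia03, where 2.52% of all measured features were. In ju145 0 of the 5 were, where 1.36% of features were, although dpy-3 was 2.02-fold higher there without the pseudocount. The sixth, dpy-7, had the authors' status FAIL and was left out. The list was chosen with earlier results of these data known, so these counts describe it and are no independent support. The gene dpy-8 shares its interval with the coding gene C31H2.14, so reads may be split between them. Of the 5, dpy-3 had the largest log2 ratios in both mutants, with an FPKM of 84.2 in ia03 and 54.9 in ju145, against 27.1 in wild type.

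**Figure D4:**
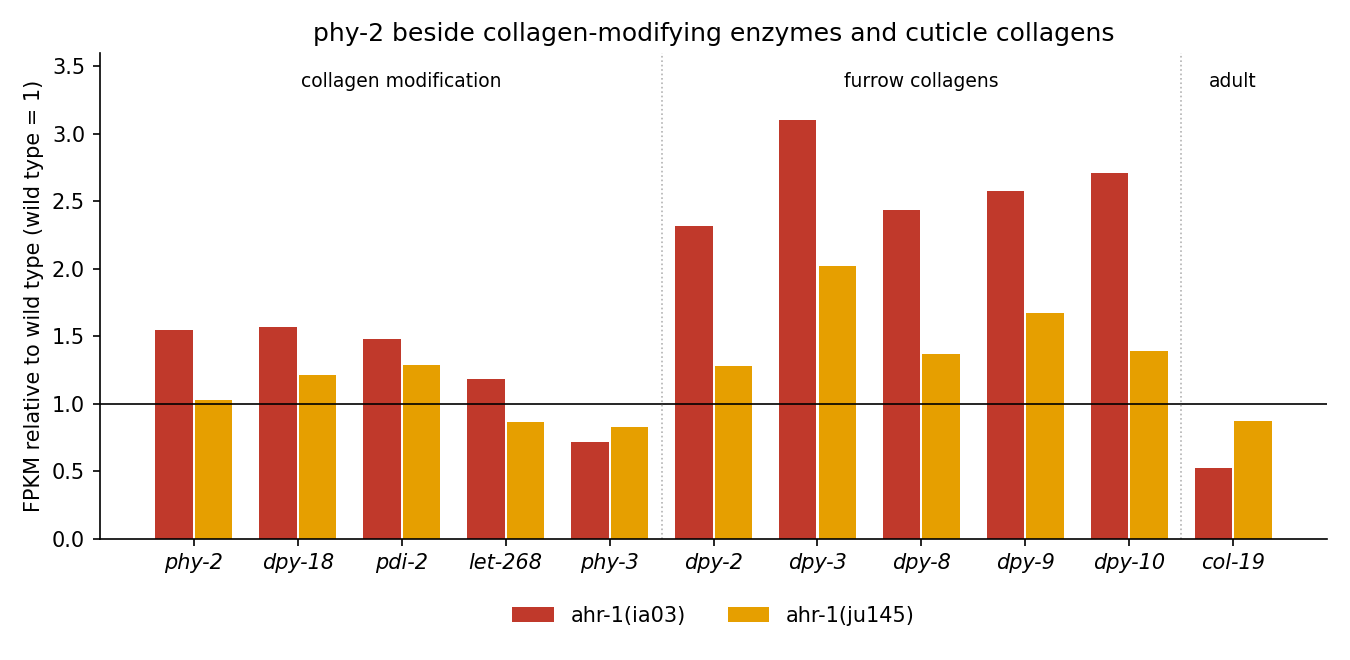
FPKM relative to wild type (wild type = 1) of phy-2, of other collagen-modifying genes, of furrow collagens and of the adult collagen gene col-19, in ahr-1(ia03) and ahr-1(ju145). In ia03, phy-2 and dpy-18 stand at 1.55 and 1.57 times wild type, the furrow collagens at 2.32 to 3.10 times, and col-19 below 1.

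Whole animals were sampled, so fewer cells of a type and less RNA per cell cannot be told apart, and the markers of yolk, sperm and adult cuticle were lower in both mutant libraries. All 19 marker genes were above 0 in every library. The summed markers of muscle, intestine and neurons lay between 0.862 and 1.05 times wild type, and those of the germline at 0.822 in ia03 and 0.874 in ju145. The yolk genes vit-1 to vit-6, made by the adult intestine, were all lower, with a summed FPKM of 4183 in ia03 and 5751 in ju145, against 8211 in wild type. The adult cuticle collagen gene col-19 was at 941 in ia03 and 1572 in ju145, against 1806 in wild type. The 3 sperm genes summed to 328 in ia03 and 431 in ju145, against 523 in wild type, a sum made up mostly of msp-142, while spe-9 and spe-11 were lowest in ju145. The part of developmental stage in the higher phy-2, cysl-2, sqrd-1 and vhl-1 of ia03 was not tested.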

How the data were processed

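RNA from L4 whole animals of 3 strains was sequenced, 1 library each. The submitters' processing notes name Cufflinks 1.3.0 and Cuffdiff, TopHat 1.3.1 with Bowtie2 2.0.2, SAMtools 0.1.16 and FastQC, without roles. No source used here names the genome build or annotation. The authors deposited FPKM per feature, and a p-value, q-value and status from comparing 2 libraries, per the file headers. The 45343 wild type values did not differ between the tables, which allowed comparison of the 3 libraries. FPKM holds no counts, so neither counting intervals nor floors could be had.

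Log2 ratios of FPKM + 1 were taken here over features of status OK that reached an FPKM of 1 in either library. The pseudocount understates differences of low genes. Size limits were 2-fold and 1.5-fold. All 8 genes were named whatever their values, and of each list every gene past 2-fold, or else the 2 with the largest difference, plus hif-1 and aha-1; other genes were named after their values were seen. Members and lists were chosen with earlier results of these data known. The size rule was tested on simulated data with planted 4-fold changes, small noise and a wild type FPKM of at least 5. That setting does not bear on the smaller differences described above, or on sqrd-1, whose wild type FPKM was 4.04. Exon lengths came from Ensembl release 115, which matched 44880 features. Alternatives were other pseudocounts, floors, scalings, statuses and size limits, and, added after seeing the data, a background of longer coding genes. No promoter motifs were searched. Python 3.11.15, numpy 2.4.6, pandas 2.3.3 and matplotlib 3.10.9 were used.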

Additional observations from a re-analysis of the deposited data

Results flagged for a closer look

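The partner gene aha-1 stood on opposite sides of wild type in the mutants, at 0.19 in ia03 and -0.18 in ju145 on the log2 ratio scale, a difference of 0.37 between ia03 and ju145. The interval of aha-1 also holds the more abundant coding gene mrpl-34, with an FPKM of 41.9 in ia03 and 35.4 in ju145, against 36.1 in wild type, so reads may be split between them. Each mutant has 1 library and the difference was not tested. After subtracting the median of all features the ratios were 0.21 in ia03 and 0.0029 in ju145. No group was large enough to look for a sample far from the others.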

How the results depend on the processing

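No paired analysis was possible because each strain has 1 library, and for the same reason no library could be left out. The count of 0 of 8 genes at 2-fold held in ia03, in ju145 and between the mutants under pseudocounts of 0.1 and 5, no floor or a floor of FPKM 5, both rescalings and any status, and for each mutant with a q-value limit of 0.05, except that with the floor of FPKM 5 sqrd-1 was not measured in ju145 and the count there was 0 of 7. At 1.5-fold the counts were 3 in ia03, 0 in ju145 and 1 between the mutants. Of 167 recomputed log2 ratios of single genes, 0 crossed 2-fold and 8 changed sign, all of them small ratios of cysl-1 or cysl-3 under rescaling. The ratio of sqrd-1 in ia03 ranged between 0.44 and 0.83 with the pseudocount, that of phy-2 between 0.58 and 0.67 and that of cysl-2 between 0.64 and 0.74, and with a pseudocount of 5 only cysl-2 stayed past 1.5-fold. The median of the 8 genes in ju145 turned positive, at 0.14 after rescaling by the median ratio and 0.17 by the upper quartile, since these raise every ju145 value 1.15 and 1.18 times. Of the 36 measured pathway genes, 5 were higher and 0 lower by 2-fold in ia03, 8 and 5 by 1.5-fold and 0 higher by 4-fold. All 5 genes higher by 2-fold were furrow collagens, and the other lists held 0. The furrow collagens were chosen with earlier results of these data known, so these counts are no support for a change of the pathway. In ju145 0 were higher or lower by 2-fold, 1 was higher under either rescaling, and 4 were higher and 2 lower by 1.5-fold. Over all measured features, 2.52% were higher and 4.26% lower by 2-fold in ia03, and 6.68% and 13.2% by 1.5-fold. In ju145 these shares were 1.36% and 3.54% by 2-fold, and 2.94% and 13.8% by 1.5-fold. Among coding genes with at least 300 nt of exon, 3.97% differed by 2-fold in ia03 and 2.43% in ju145, and 5.81% were at least 1.5-fold higher in ia03. Among the 8 genes, depth limits sqrd-1 and vhl-1 most.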
